A study of Mus musculus with 6 samples.

Results

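A set of 10 enzymes that make NADPH or belong to the pentose phosphate pathway was followed in pancreatic islets of Wt and Pax8 +/- mice. Pgls, Pgd, Tkt, Taldo1, Rpia, Me1, Idh1, Idh2 and Nnt belong to the set. Members were found by gene symbol, with the brightest probe set taken where a gene has several, and each gene found had 1 probe set. Of these 10 enzymes, 7 were measured under their symbol, among 19505 gene symbols in all. Tkt, which encodes transketolase, and Nnt, which encodes the mitochondrial transhydrogenase, were matched to no probe set and are not analysed here.

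Islet RNA was hybridized to Clariom S arrays, 1 array per sample, with 3 samples in each of 2 groups. The samples labelled Control are Wt mice, and those labelled Pax8 +/- lack 1 functional allele of Pax8, whose protein switches on the genes of thyroid hormone synthesis, in all tissues and not in islets alone. The mice were males on a C57BL/6 background, with no substrain named, untreated and adult at 9 months of age by the description of the experiment, while the labels give no age. It is unknown whether islets of several mice were combined on an array, and the p-values therefore reflect variation among these 6 preparations, some of which may be technical. Values are log2 levels after RMA, a procedure that corrects background, normalizes arrays against each other and combines the probes of a gene.

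Background was set on each array at the 95th percentile of its negative control probes, which lay between 7.60 and 7.97, and between 25.3% and 29.5% of gene probe sets exceeded it. Pax8 read 4.66, 5.05 and 4.74 on the Wt arrays and 4.59, 4.58 and 5.02 on the Pax8 +/- arrays, below background throughout, and cannot serve to check the labels. The islet hormones Ins2 and Gcg had the top value of each of the 6 arrays (19.88 to 19.93), as had the acinar digestive enzymes Cpa1 and Prss2. Exocrine RNA was therefore present in every sample, and genes at that ceiling cannot show a difference.

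NADPH is the electron donor with which cells regenerate glutathione and thioredoxin and build fatty acids and cholesterol. The oxidative branch of the pentose phosphate pathway makes it from glucose 6-phosphate, and the nonoxidative branch rearranges the pentose products into glycolytic intermediates or keeps ribose 5-phosphate for nucleotides. In beta cells, which have modest stores of antioxidant enzymes, NADPH also comes from malic enzyme and from the isocitrate dehydrogenases, through cycles of pyruvate, malate and citrate that have been linked to insulin secretion. In mice, Pgd, Taldo1, Me1 and Idh1 are among the genes described as targets of NRF2, the transcription factor of the antioxidant response.

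Pgd, Taldo1 and Idh1 had lower means and Idh2 had a higher mean in Pax8 +/- islets, by 1.65- to 2.16-fold, but none of the 7 enzymes passed a test. At an unadjusted p of at most 0.05 in limma's 2-group linear model, 0 of 7 were called, against 5.91% of all 22206 gene probe sets. The smallest unadjusted p among them was 0.058, for Idh2. The same number, 0 of 7, passed the thresholds of the study, a fold change of at least 2.5 together with that p, which 1% of all probe sets did (0.351% lower and 0.648% higher). Fold changes here come from differences of log2 means. The study, with its own software, reported more genes in each direction at these thresholds, so that 1% is not its yield. For none of the 7 were the groups separate, where 9.66% of all probe sets had groups that did not overlap (5.14% lower and 4.52% higher). No probe set on the arrays reached an adjusted p under 0.05 in limma (smallest adjusted p = 0.745, with 1312 at an unadjusted p of at most 0.05), nor in an ordinary linear model (976 at that unadjusted p, or 4.4%). The median log2 difference of the 7 enzymes was -0.25, beside -0.01 over all probe sets.

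**Figure D1:**
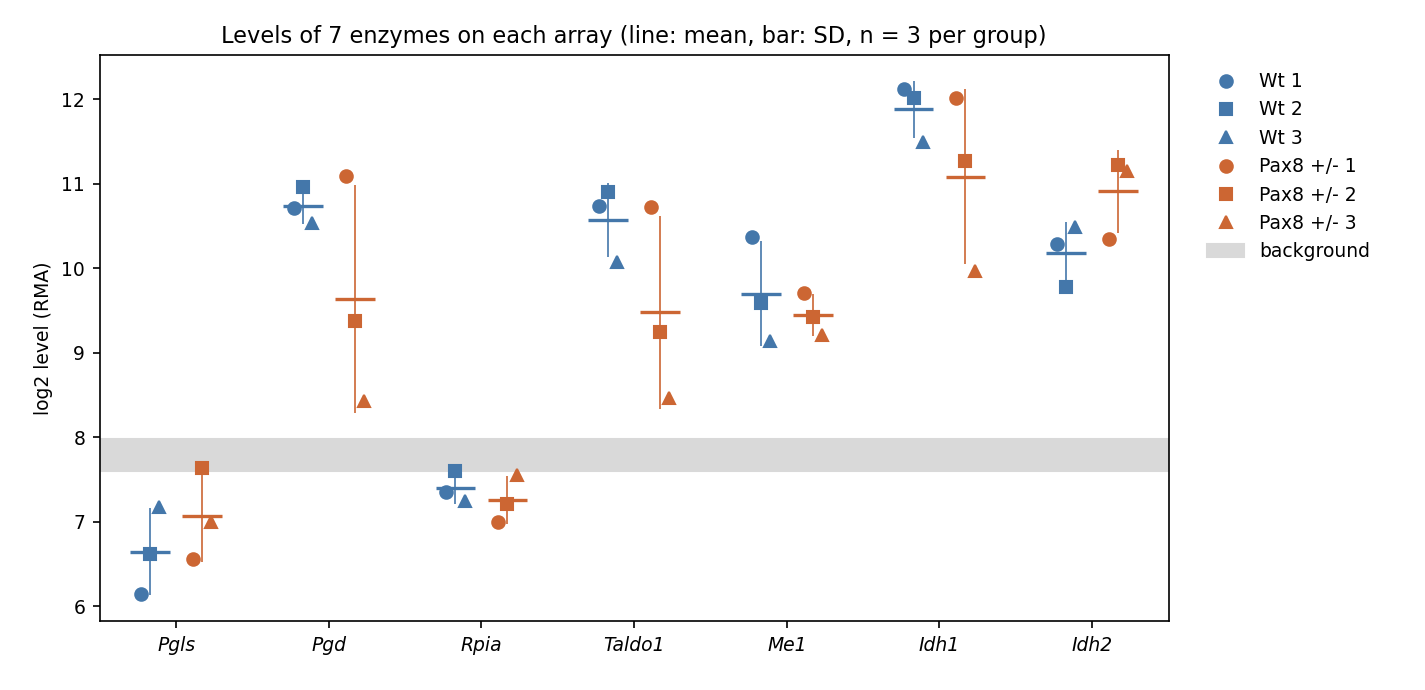
Log2 level (RMA) of each of the 7 enzymes on each array, with Wt in blue, Pax8 +/- in orange and the marker shape giving the replicate number; lines are group means, bars are SD (n = 3 per group) and the grey band spans the background of the 6 arrays. Pgd, Taldo1 and Idh1 are lowest on Pax8 +/- replicates 2 and 3 and Idh2 is highest there, while Pgls and Rpia lie below the background of their array everywhere.

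In the oxidative branch, Pgls (Entrez Gene 66171), which opens the ring of the lactone that the oxidative branch forms, lay below background on all 6 arrays. It read 6.14, 6.61 and 7.17 in Wt and 6.56, 7.64 and 6.99 in Pax8 +/- islets. The groups overlapped, and values at this level do not give a size of difference (limma, unadjusted p = 0.292).

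Pgd (Entrez Gene 110208) encodes 6-phosphogluconate dehydrogenase, the enzyme of the branch that releases carbon dioxide and makes NADPH. It read 10.72, 10.96 and 10.53 on the Wt arrays and 11.09, 9.38 and 8.42 on the Pax8 +/- arrays. Pax8 +/- replicate 1 was the highest of the 6 arrays and replicates 2 and 3 were the lowest, so that no Pax8 +/- array fell within the Wt range and yet the groups were not separate. The mean was 9.63 ± 1.35 (SD, n = 3) in Pax8 +/- against 10.74 ± 0.22 (SD, n = 3) in Wt islets, which is -1.11 on the log2 scale (95% interval -2.46 to 0.25, adjusted p = 0.745 from limma).

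In the nonoxidative branch, Taldo1 (Entrez Gene 21351) encodes transaldolase, which moves carbon units between sugar phosphates. It read 10.73, 10.90 and 10.07 in Wt and 10.72, 9.25 and 8.46 in Pax8 +/- islets. The order was the one seen for Pgd at the low end, with replicates 2 and 3 of the Pax8 +/- group lowest, while replicate 1 sat among the Wt arrays. The log2 difference was -1.09 (95% interval -2.33 to 0.14), from 10.57 ± 0.44 (SD, n = 3) to 9.48 ± 1.15 (SD, n = 3), with an adjusted p = 0.745 from limma.

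Rpia (Entrez Gene 19895), the isomerase that forms ribose 5-phosphate, was below background on all 6 arrays. Its values ran from 7.24 to 7.60 in Wt and from 7.00 to 7.55 in Pax8 +/- islets, the narrowest spread of the 7 enzymes. Its 95% interval for the log2 difference, -0.74 to 0.46, includes 0, and a level at background does not show that Rpia was alike in the groups.

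Me1 (Entrez Gene 17436) encodes cytosolic malic enzyme, which turns malate into pyruvate and yields NADPH. It read 10.36, 9.59 and 9.14 on the Wt arrays and 9.71, 9.42 and 9.21 on the Pax8 +/- arrays. All 3 Pax8 +/- values lay inside the Wt range, and the Wt arrays themselves were spread more widely (SD 0.62 against 0.25, n = 3 each). The log2 difference was -0.25 (95% interval -1.05 to 0.55, adjusted p = 0.891 from limma), and it changed sign without Wt replicate 1, at 0.08.

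Idh1 (Entrez Gene 15926), the isocitrate dehydrogenase of cytosol and peroxisomes, read 12.12, 12.02 and 11.49 in Wt and 12.01, 11.27 and 9.96 in Pax8 +/- islets. Again the pair of lowest arrays was Pax8 +/- replicates 3 and 2, with replicate 1 within the Wt range. Replicate 2 was nearer to Wt replicate 3 than to Pax8 +/- replicate 3. The log2 difference was -0.80 (95% interval -1.92 to 0.33, adjusted p = 0.754 from limma), and without Pax8 +/- replicate 3 it shrank to -0.24.

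Idh2 (Entrez Gene 269951), the NADPH-making isocitrate dehydrogenase of mitochondria, went the other way. It read 10.28, 9.78 and 10.48 on the Wt arrays and 10.34, 11.22 and 11.15 on the Pax8 +/- arrays. Replicates 2 and 3 of the Pax8 +/- group were the highest of the 6 arrays and replicate 1 was again within the Wt range. Means were 10.18 ± 0.36 (SD, n = 3) and 10.91 ± 0.49 (SD, n = 3), a log2 difference of 0.73 (95% interval -0.03 to 1.48, adjusted p = 0.745 from limma). Levels of different probe sets cannot be set against each other, so that these values do not say which of the isocitrate dehydrogenases was the more abundant.

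**Figure D2:**
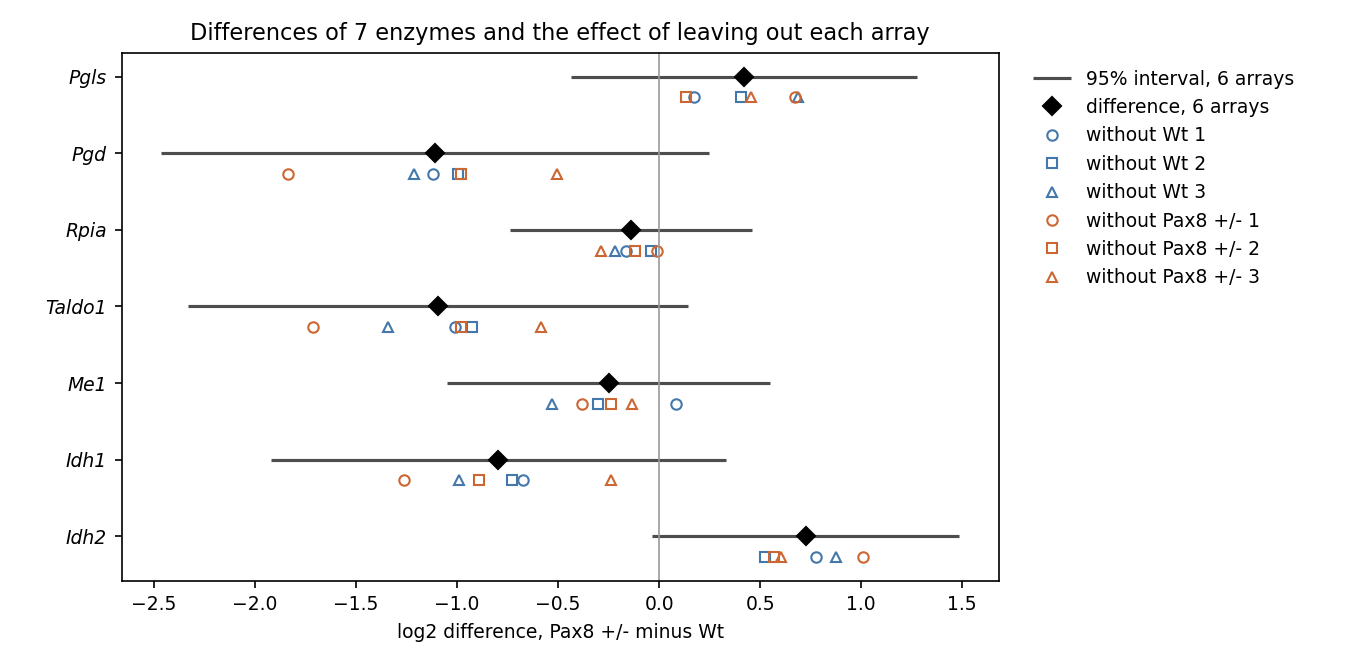
Log2 difference (Pax8 +/- minus Wt, horizontal axis) of each enzyme with its 95% interval over 6 arrays (black), and below it the difference without each array in turn (open symbols). All 7 intervals include 0, and the largest shifts of Pgd, Taldo1, Idh1 and Idh2 away from 0 come from leaving out Pax8 +/- replicate 1.

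The 4 enzymes with the largest differences thus shared an array pattern rather than a clean division by genotype. Pax8 +/- replicates 2 and 3 were the lowest pair of arrays for 3 of the 7 enzymes (Pgd, Taldo1 and Idh1) and the highest pair for 1 (Idh2). Over all gene probe sets these arrays were the lowest pair for 13.3% and the highest pair for 13.7%, a count made after the values were seen. Me1, Pgls and Rpia had other orders. An exact 2-sided permutation test of the difference of means gave p = 0.2 to 0.7 over the 7 enzymes, and with 3 arrays against 3 it cannot go below 0.1.

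The differences of Pgd, Taldo1, Idh1 and Idh2 were larger without Pax8 +/- replicate 1 and smaller without Pax8 +/- replicate 3. Without replicate 1, Pgd was at -1.84, Taldo1 at -1.71, Idh1 at -1.26 and Idh2 at 1.01 on the log2 scale, each at an unadjusted p of at most 0.05 in limma, with the smallest adjusted p at 0.076 (Pgd) and 0.086 (Taldo1). In that fit 7.35% of all probe sets were lower and 7.99% higher at that unadjusted p, and 29 of all probe sets had an adjusted p under 0.05, none of them an enzyme of the set. Without Pax8 +/- replicate 3, Pgd was at -0.51, Taldo1 at -0.59, Idh1 at -0.24 and Idh2 at 0.60. In the 5 leave-outs that kept Pax8 +/- replicate 1, no enzyme of the set was called.

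Promoter sequence was examined because Pgd, Taldo1, Me1 and Idh1 have been described as NRF2 targets and only some of them were low on the same arrays. Windows of 300 bases, from 250 before an annotated start to 50 from it on, were taken from RefSeq (GRCm38.p6) and all 7 enzymes matched, with 10 windows. The core letters of the antioxidant response element, TGACNNNGC on either strand, occurred in 2 of the 10 windows, 1 of Me1 and 1 of Pgd, and in 12.4% of all 32851 windows. Both are shown 5′ to 3′ on the gene's strand with those letters in capitals, the Me1 window at chr9:86695865-86696164 (minus strand) and the Pgd window at chr4:149166033-149166332 (minus strand).
Me1: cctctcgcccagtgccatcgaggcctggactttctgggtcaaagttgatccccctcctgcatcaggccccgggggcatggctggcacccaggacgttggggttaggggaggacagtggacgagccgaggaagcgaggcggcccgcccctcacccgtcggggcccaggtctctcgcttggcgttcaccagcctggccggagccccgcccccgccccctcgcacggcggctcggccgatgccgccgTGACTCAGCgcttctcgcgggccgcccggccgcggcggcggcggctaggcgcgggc
Pgd: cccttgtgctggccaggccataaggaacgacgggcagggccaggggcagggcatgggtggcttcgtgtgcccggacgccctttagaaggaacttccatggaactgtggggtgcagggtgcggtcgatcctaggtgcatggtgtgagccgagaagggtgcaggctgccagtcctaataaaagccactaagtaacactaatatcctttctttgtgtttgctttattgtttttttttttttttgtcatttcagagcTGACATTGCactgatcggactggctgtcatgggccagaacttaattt

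In Me1 the core begins 6 bases before the annotated start and runs across it, and its letters also hold the AP-1 motif TGANTCA, which 7.81% of all windows have. In Pgd the core begins at base 4 from an annotated alternative start that lies inside the gene, while the window of its outer start has none. The letters just before that inner start, a stretch rich in t that ends in cag, resemble the end of an intron. That start may therefore be the edge of an inner exon and the core no promoter sequence, which was not tested. No core was found in the windows of Taldo1, Idh1, Idh2, Pgls and Rpia. Of the NRF2 targets outside the set, described below, 9 had windows and 4 of these had a core. Described targets can therefore lack a core in such windows. A match describes letters and is neither a site nor a cause. Me1, with a core at its outer start, had all its Pax8 +/- values within the Wt range. Pgd, with a core only in the window of its inner start, was low on Pax8 +/- replicates 2 and 3. Taldo1 and Idh1, with no core in their windows, were low on the same arrays. Sequence outside the windows was not searched, and the part of NRF2 in these levels was not tested.

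Other genes of the pathway were taken from a list of 12 neighbours, all of them measured, of which 1 was higher, 0 were lower and 11 were not called at an unadjusted p of at most 0.05, where 3.14% of all probe sets were higher and 2.77% lower. The gene called was Prps1, the synthetase that turns ribose 5-phosphate into the activated sugar of nucleotide synthesis. Prps1 read 9.88, 9.74 and 11.44 in Wt and 10.59, 12.62 and 12.14 in Pax8 +/- islets. Replicates 2 and 3 of the Pax8 +/- group were highest and replicate 1 lay within the Wt range, for a log2 difference of 1.43 (standard error 0.61, adjusted p = 0.745 from limma). Leaving out Pax8 +/- replicate 2 or 3, or Wt replicate 1 or 2, ended the call of Prps1, as did a fit without moderation and one without the dimmest 33.3% of probe sets, with differences from 1.01 to 2.03 over the leave-outs. Rpe, the epimerase of the nonoxidative branch, was at 0.27, Pgm2, which handles pentose phosphates as a mutase, at -0.49 and Dera, a deoxyribose phosphate aldolase, at -0.33, all short of the test. Tktl1 and Tktl2, relatives of transketolase, were below background on all arrays and say nothing of Tkt.

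Among 9 measured of 10 listed genes for other routes to NADPH and for NADP synthesis, 1 was lower, 0 were higher and 8 were not called (2.77% lower and 3.14% higher over all probe sets). Mthfd2, a mitochondrial folate enzyme, read 11.43, 11.54 and 11.28 in Wt and 11.36, 10.37 and 9.78 in Pax8 +/- islets, with the same arrays lowest as for Pgd and a log2 difference of -0.92 (standard error 0.39, adjusted p = 0.745 from limma). It lost its call in every leave-out other than that of Pax8 +/- replicate 1, over differences of -1.35 to -0.56. The call of Mthfd2 was also lost without moderation, with arrays scaled to 1 median and without the dimmest probe sets. Mthfd1, its cytosolic relative, stood at 1.06, Aldh1l1 at -0.56 and Nadk2, the mitochondrial NAD kinase, at -0.41, and none of these passed. In the fit with array weights, and without Pax8 +/- replicate 1, Mthfd1 (higher) and Aldh1l1 (lower) were called, and Mthfd1 was called without Wt replicate 3 too. Over the leave-outs, Mthfd1 ran from 0.59 to 1.55, Aldh1l1 from -0.94 to -0.17 and Nadk2 from -0.75 to -0.074. Mthfd1 lay below background on 2 arrays and Aldh1l1 on all 6.

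Of the 11 measured of 12 listed partners in pyruvate cycling, 1 was higher, 0 were lower and 10 were not called (3.14% higher and 2.77% lower over all probe sets). Pcx, pyruvate carboxylase, which feeds pyruvate into the cycles that Me1 closes, was at 7.46, 6.69 and 9.02 in Wt and 8.45, 9.73 and 9.26 in Pax8 +/- islets. Its log2 difference was 1.42 (standard error 0.59, adjusted p = 0.745 from limma), and since Pcx lay below background on 2 Wt arrays, that size is not exact. As for Prps1, leaving out Pax8 +/- replicate 2 or 3, or Wt replicate 1 or 2, ended the call, over differences of 0.91 to 2.07, and so did a fit without moderation. Acly, which splits citrate in the cytosol, was at 1.51, Mdh2, the mitochondrial malate dehydrogenase, at 0.58 and Aco1, the cytosolic aconitase, at -0.41, short of the test. Acly ran from 0.89 to 2.19 over the leave-outs, and was called as higher without Wt replicate 3, without Pax8 +/- replicate 1 and with array weights. Mdh2, from 0.35 to 0.85, was called without Wt replicate 3, and Aco1 ran from -0.69 to -0.13 with no call.

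Of the 8 measured of 12 listed enzymes that use NADPH, 1 was higher, 0 were lower and 7 were not called (3.14% higher and 2.77% lower over all probe sets). Fasn, fatty acid synthase, was at 7.50, 7.23 and 7.59 in Wt and 7.86, 8.65 and 8.65 in Pax8 +/- islets, with groups that did not overlap, as for 4.52% of all probe sets in that direction. It exceeded background on all 3 Pax8 +/- arrays and on no Wt array, so that the size of the difference is not exact. The Pax8 +/- mean was 1.49-fold above the mean background of the Wt arrays, a value that leaves out the spread among arrays. For the measured values the 95% interval of the log2 difference was 0.26 to 1.63 (adjusted p = 0.745 from limma). Fasn kept an unadjusted p of at most 0.05 in all 6 leave-outs, over differences of 0.81 to 1.21. Txnrd1, cytosolic thioredoxin reductase, was at -0.84, Blvrb, a biliverdin reductase, at -0.73 and Nqo1, a quinone reductase, at -0.64, none of which passed. All 3 were called as lower without Pax8 +/- replicate 1, and Txnrd1 and Blvrb also with array weights. Over the leave-outs Txnrd1 ran from -1.51 to -0.42, Blvrb from -1.17 to -0.47 and Nqo1 from -1.12 to -0.23. Blvrb exceeded background on 1 array and Nqo1 on 3.

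**Figure D3:**
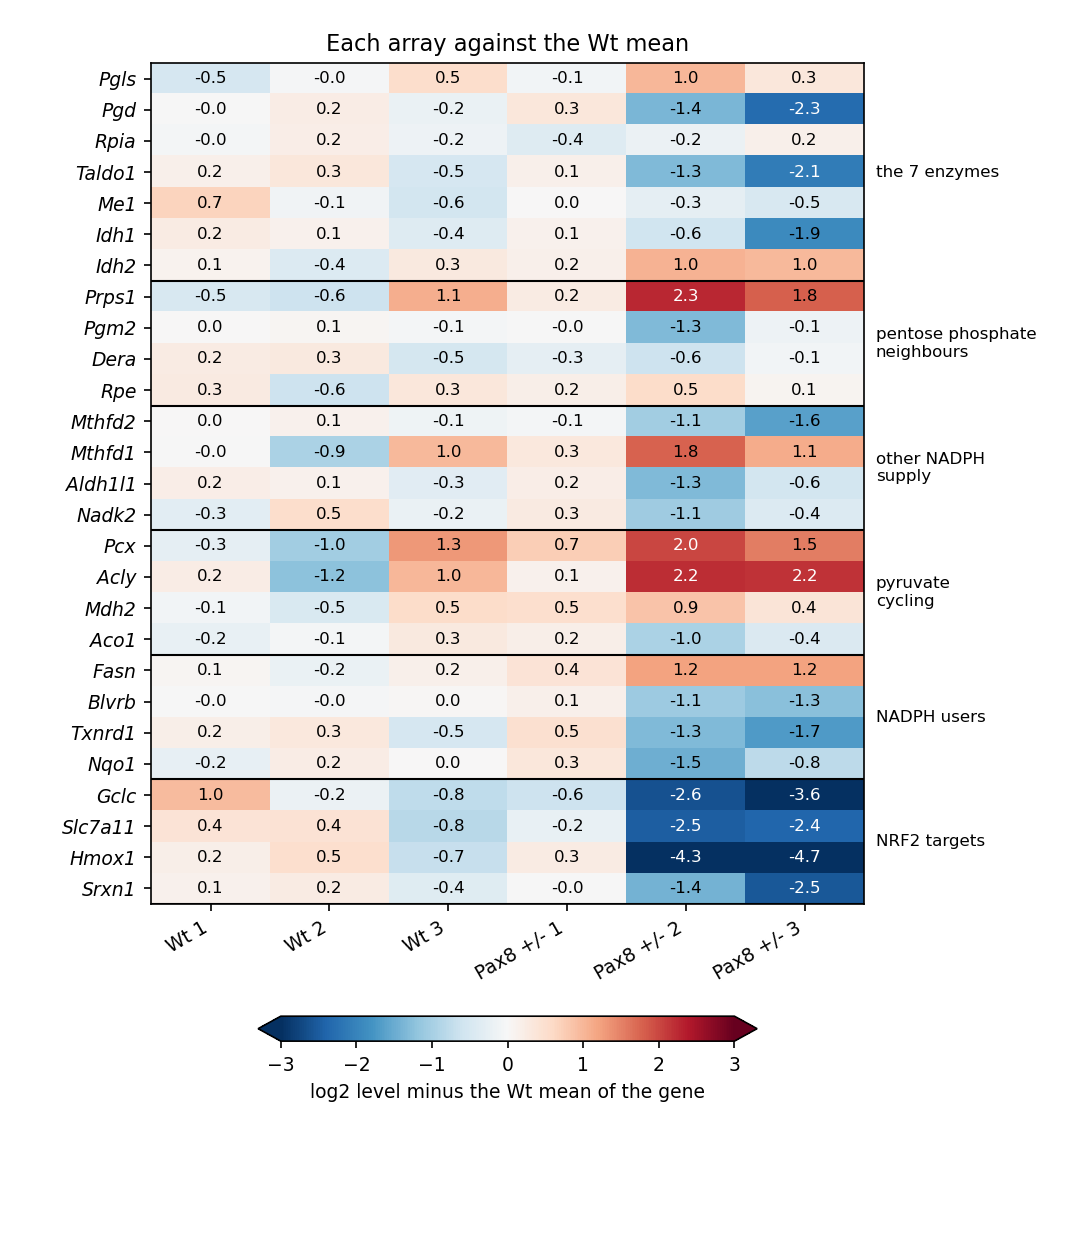
Log2 level on each array minus the Wt mean of the gene (colour and printed value, blue lower and red higher, colour at its end past 3 either way) for the 7 enzymes and for up to 4 genes with the smallest p of each pathway list. Pax8 +/- replicates 2 and 3 carry most of the distance from Wt, and Pax8 +/- replicate 1 stays near the Wt arrays, as for Pgd at 0.35, -1.36 and -2.31.

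NRF2 targets outside the set were followed for comparison with Pgd, Taldo1, Me1 and Idh1. All 12 were measured, 4 were lower, 0 were higher and 8 were not called, beside 2.77% lower over all probe sets, and the median log2 difference was -0.79. Those called were Gclc, the catalytic subunit for glutathione synthesis (-2.29), Slc7a11, the cystine importer (-1.68), Hmox1, which degrades heme (-2.91), and Srxn1, which repairs peroxiredoxins (-1.32), each with an adjusted p = 0.745 from limma. Hmox1 was singled out by the study on these same samples. From them the study also named the antioxidant stress response, as lower, among the most modulated pathways. The direction of Hmox1 and of the other NRF2 targets is therefore no independent evidence. For 9 of these 12 genes, Pax8 +/- replicates 2 and 3 were the lowest pair of arrays, as for Pgd, Taldo1 and Idh1, beside 13.3% of all probe sets. Some of these genes, Txnrd1 and Nqo1 among them, are also in the list of enzymes that use NADPH, so that these lists are not separate. All 4 calls were lost without Wt replicate 1 or Pax8 +/- replicate 3. Those of Slc7a11, Hmox1 and Srxn1 were lost without Wt replicate 2 or Pax8 +/- replicate 2 as well, and that of Srxn1 also without Wt replicate 3. Without moderation none of the 4 was called, and Srxn1 was not called without the dimmest probe sets. Over the leave-outs, Gclc ran from -3.11 to -1.62, Slc7a11 from -2.42 to -1.29, Hmox1 from -4.49 to -2.04 and Srxn1 from -1.98 to -0.71.

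Mean levels of beta-cell markers were highest, and those of duct, acinar and endothelial markers lowest, on the same arrays, Pax8 +/- replicates 2 and 3. The mean level of 11 measured of 14 listed beta-cell markers was 12.62, 11.40 and 13.87 on the Wt arrays and 12.47, 14.74 and 14.85 on the Pax8 +/- arrays, and 1 marker, Nkx2-2, was called, as higher (3.14% of all probe sets were higher and 2.77% lower). The Nkx2-2 call was lost without moderation and without Wt replicate 1, Pax8 +/- replicate 2, Wt replicate 2 or Pax8 +/- replicate 3, with differences of 1.05 to 2.60 over the leave-outs. Duct markers, 10 measured of 12, ran from 12.81 to 13.38 in Wt and stood at 13.44, 12.02 and 11.81 in Pax8 +/- islets. They had 1 call, Cftr, lower and below background on all arrays. That call was lost without Wt replicate 1 or 2 or Pax8 +/- replicate 3, without moderation and on quantile-normalized values. Pax8 +/- replicates 2 and 3 were the lowest pair of arrays for 8 of the 10 duct markers and the highest pair for 7 of the 11 beta-cell markers. Over all probe sets they were the lowest pair for 13.3% and the highest pair for 13.7%.

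Acinar markers, 12 measured of 14, had a mean level of 16.23 to 16.41 in Wt and of 16.27, 16.02 and 15.83 in Pax8 +/- islets. They had 1 call, Rbpjl, lower and below background throughout (2.77% lower and 3.14% higher over all probe sets). Cpa1, Prss2 and Ctrb1 among them read at the ceiling, so that this mean can hardly move. Spink1 was at -1.39, Gp2 at -0.90 and Bhlha15 at 0.75 on the log2 scale, none of them called. Pax8 +/- replicates 2 and 3 were the lowest pair of arrays for 6 of the 12 acinar markers and the highest pair for 0. Endothelial markers, all 8 measured, ran from 8.41 to 9.07 in Wt and stood at 8.94, 8.16 and 8.11 in Pax8 +/- islets, with no call. Pax8 +/- replicates 2 and 3 were the lowest pair for 4 of these 8 and the highest pair for 1. Macrophage markers, 10 measured of 11, ran from 4.71 to 5.26 and from 4.88 to 5.34, 8 of them below background on all arrays, with C1qa and C1qc called as higher. C1qc was below background on all 6 arrays and C1qa exceeded it on 2. The C1qa call was lost without moderation and without Wt replicate 2 or Pax8 +/- replicate 2 or 3, and that of C1qc without Wt replicate 1 or 3 or Pax8 +/- replicate 3. Of 7 measured adipocyte markers 6 lay below background on all arrays, Adipoq and the called Lipe (lower, not without Wt replicate 2 or Pax8 +/- replicate 3) among them, as did 7 of 9 mesenchymal markers and both measured erythroid markers. Alpha-cell markers (4 of 8) and delta-cell markers (all 5) had no call, and the mean of the alpha-cell markers was highest on Pax8 +/- replicate 2 (12.55) and lowest on replicate 3 (11.55). The part of cell makeup in the levels of Pgd, Taldo1, Idh1 and Idh2 was not tested, and in such bulk RNA fewer cells of a type and less RNA per cell cannot be told apart.

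**Figure D4:**
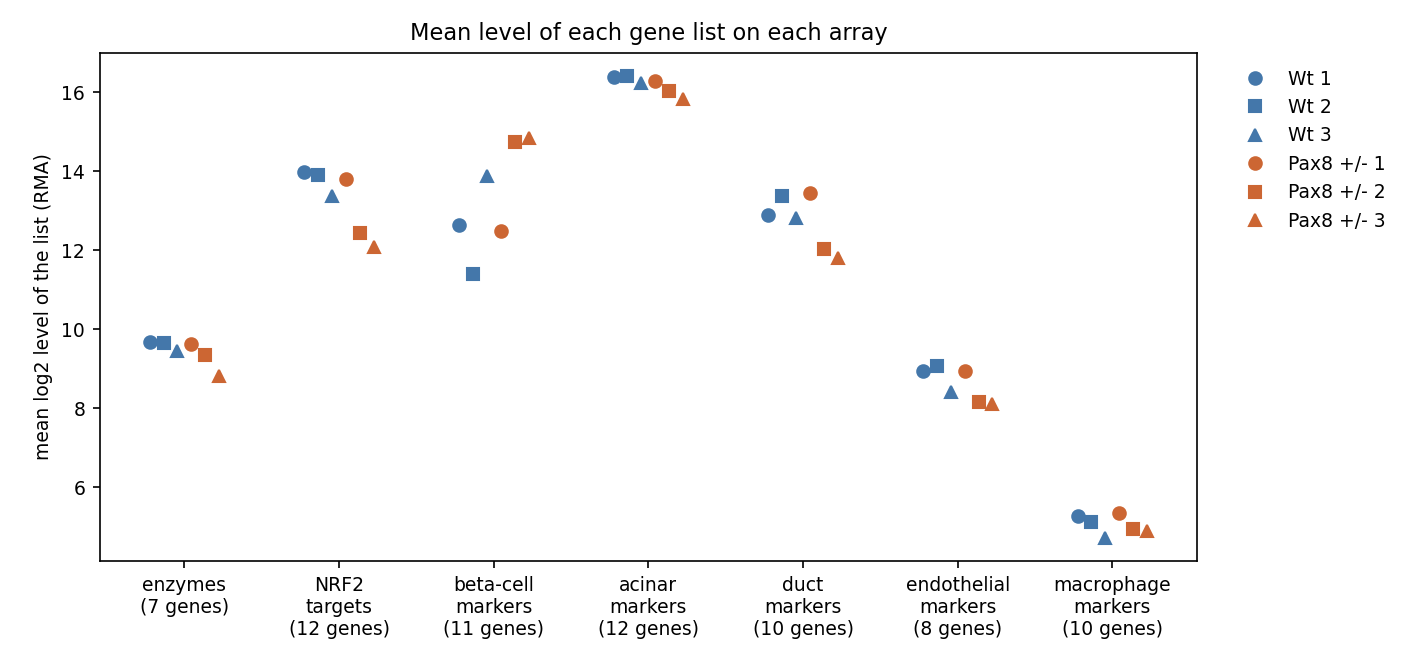
Mean log2 level of each list on each array (Wt blue, Pax8 +/- orange, marker shape for the replicate number). Pax8 +/- replicates 2 and 3 are the lowest arrays for the 7 enzymes (9.34 and 8.82), the NRF2 targets and the acinar, duct and endothelial markers and the highest for the beta-cell markers, while Pax8 +/- replicate 1 lies near the Wt arrays.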

How the data were processed

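Gene expression was measured on 6 Clariom S arrays, 3 of Wt and 3 of Pax8 +/- islets, grouped by genotype and numbered from the sample labels. The authors deposited log2 values per probe set and array. Per the study's methods, images and quality control went through the GeneChip Command Console, while RMA and the Transcriptome Analysis Console are named in the submitters' processing notes. The versions of both, the annotation and the genome build were not given in the sources used here. RMA puts all arrays on a common scale, which removes differences in total RNA between samples. Control probe sets (5222 negative and 1418 other) were left out, and 22206 gene probe sets were tested without a filter on level. Symbols came from the platform annotation, updated by Entrez Gene number through RefSeq (GRCm38.p6), for 19572 probe sets, and 2634 are unnamed here.

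Groups were compared through lmFit and eBayes of limma 3.58.1 under R 4.3.3 (2-sided, no covariate), with Benjamini-Hochberg adjustment over all 22206 probe sets. The code was tested on simulated data. The number of arrays limits the precision. The enzymes and gene lists were chosen with earlier results of these data known. Named are the 7 measured enzymes, of each other list up to 4 genes with the smallest p and any gene at an unadjusted p of at most 0.05, and marker genes beside their lists. Cpa1, Prss2, Adipoq, Tktl1 and Tktl2 were named in addition. A further enzyme of the set is not reported here. As alternatives, the fit was run on quantile-normalized values, on arrays scaled to 1 median, on probe sets with 1 gene symbol, on the mean over a gene's probe sets and without the dimmest 33.3% of probe sets. It was also run with array weights, without moderation, with a robust moderation that follows intensity, with replicate number as a block and without each array in turn, and the fold change was taken from a Tukey biweight (constant 5).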

Additional observations from a re-analysis of the deposited data

How the results depend on the processing

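With array weights, 2 enzymes were lower (Pgd and Taldo1) and 1 higher (Idh2) at an unadjusted p of at most 0.05, and 2 passed the thresholds of the study, where the fit with equal weights gave 0 of each. Over all probe sets, 6.27% were lower and 7.58% higher at that p with array weights, beside 2.77% and 3.14% with equal weights. Pgd, at -1.33, and Taldo1, at -1.34, passed the thresholds of the study narrowly with array weights. The share of all probe sets past those thresholds was not taken in the alternative fits, so that these counts cannot be set beside it. Over the leave-outs the numbers ran from 0 to 3 for lower, 0 to 1 for higher and 0 to 2 at the thresholds of the study, all the calls coming without Pax8 +/- replicate 1. The array weights were 1.76, 0.89 and 0.81 for Wt replicates 1 to 3 and 0.58, 1.45 and 0.94 for Pax8 +/- replicates 1 to 3. Pax8 +/- replicate 1 thus counted least in the weighted fit, which in part repeats leaving it out. Why the weights change these counts was not tested further. No alternative gave an enzyme of the set an adjusted p under 0.05. With the replicate number as a block, 1 enzyme was lower (Taldo1, unadjusted p = 0.031), and of the pyruvate cycling genes Acly was then called as well. The labels do not say whether equal numbers pair the samples. Deviations of same-numbered arrays correlated at 0.00, -0.42 and 0.14, which with 3 arrays per group cannot decide it. The sign changed for 2 genes, Me1, with a log2 difference from -0.53 to 0.085 over the leave-outs (0.085 without Wt replicate 1), and Rpe, at -0.12 with a Tukey biweight and from -0.038 (without Wt replicate 2) to 0.44 over the leave-outs. The other 6 enzymes kept their direction in all 16 alternatives. No alternative moved the median difference of all probe sets by over 0.1. Pgls and Rpia, below background on every array, allow no statement about their levels.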
